A study of Mus musculus with 16 samples.

Results

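The 37 genes described here are genes of the interferon response and of the immunoproteasome, read in bulk RNA-seq of mouse liver. They were chosen by name for their known roles, with earlier results of these data known. All 37 had a row among the 15544 gene identifiers of the table, and all 37 were among the 12704 genes that entered the tests by reaching a value of 1 in 4 libraries or more. The genes nearest to that limit were Rsad2, Ifit2 and Ifi44, whose fourth-highest values were 1.72, 1.74 and 2.10. Values are length-adjusted shares of a library on the TPM scale (transcripts scaled to a common library sum), adjusted between libraries by the authors.

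Interferons are secreted proteins that warn cells of viruses and other intracellular microbes. Type I interferons signal through a complex with STAT2 and IRF9 that binds a promoter element called the ISRE, whereas interferon gamma acts mainly through an element called GAS. The first pathway induces antiviral effectors such as the Ifit and Oas families, and the second induces guanylate-binding proteins, immunity-related GTPases and the immunoproteasome, a form of the protein-degrading complex that cuts peptides for display on MHC class I. In liver the response is carried by hepatocytes as well as by Kupffer cells, endothelium and lymphocytes.

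The 16 libraries came from livers of female mice aged 27 weeks, with 4 libraries in each of 4 groups. Controls were Esr1fl/fl, in which the gene for oestrogen receptor alpha is floxed and intact. Mutants were Esr1Nkx2-1Cre, which carry the same floxed alleles and a Cre recombinase under Nkx2-1, which removes the receptor from the whole Nkx2-1 lineage, part of the hypothalamus included, and is not aimed at the liver. Both were on a CD-1;129P2 mixed background and ate either chow or, for 17 weeks, a high-fat diet (HFD). Each library is named below by its group and a number that follows the order of the samples and pairs nothing across groups.

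Promoter sequence is shown for some of the genes that hold a core of the ISRE, so that the elements read by the interferon factors can be seen. Genes without that core in their window, such as Irf7 and Psmb8, are not shown. The stretches lie just upstream of the annotated start site on GRCm38.p6 (RefSeq), are written 5′ to 3′ on the gene's strand in lower case, and carry in capitals each match to the core of the ISRE, GAAANNGAAA on either strand. The first set holds guanylate-binding proteins and an immunity-related GTPase, at chr3:142620589-142620628 (plus), chr3:142559984-142560029 (plus), chr3:142530268-142530307 (plus) and chr11:58199507-58199546 (plus).
Gbp2: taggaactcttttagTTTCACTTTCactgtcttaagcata
Gbp3: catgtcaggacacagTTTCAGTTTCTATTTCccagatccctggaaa
Gbp7: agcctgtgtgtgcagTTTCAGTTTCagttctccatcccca
Igtp: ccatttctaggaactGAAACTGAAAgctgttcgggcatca
The second set holds antiviral genes, at chr4:156200860-156200911 (minus), chr8:71537572-71537617 (minus) and chr8:61928019-61928086 (plus).
Isg15: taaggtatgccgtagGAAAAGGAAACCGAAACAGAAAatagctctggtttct
Bst2: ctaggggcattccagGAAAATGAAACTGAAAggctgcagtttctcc
Ddx60: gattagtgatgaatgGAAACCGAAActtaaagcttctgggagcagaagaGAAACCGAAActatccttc
The third set holds a pair of neighbouring Oas1 genes, at chr5:120907526-120907560 (minus) and chr5:120887614-120887646 (minus).
Oas1a: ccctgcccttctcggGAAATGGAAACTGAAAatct
Oas1g: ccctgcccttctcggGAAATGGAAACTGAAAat

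Of the 37 genes, 29 had a promoter window in RefSeq. The ISRE core was present in 17 of the 29 (58.6%), against 3.99% of the 27025 genes with a window and 3.44% of all 32851 windows of the same length. By role, it was found in 5 of 6 interferon-gamma GTPases, 4 of 5 sensors and antiviral enzymes, 6 of 9 type I effectors, 1 of 4 transcription factors (Stat2), 1 of 2 chemokines (Cxcl10) and 0 of 3 immunoproteasome genes. The GAS letters, TTCNNNGAA on either strand, were present in 7 of the 29 (24.1%), against 9.55% of genes and 8.30% of windows. Those 7 were Bst2, Gbp7, Ifit2, Igtp, Irf1, Oas1a and Psmb8, and in Bst2 the GAS letters overlapped the first ISRE core. Isg15 held 3 ISRE cores in a row between 78 and 66 bases upstream of its start. A match is a description of letters in a window and not a bound site.

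**Figure D1:**
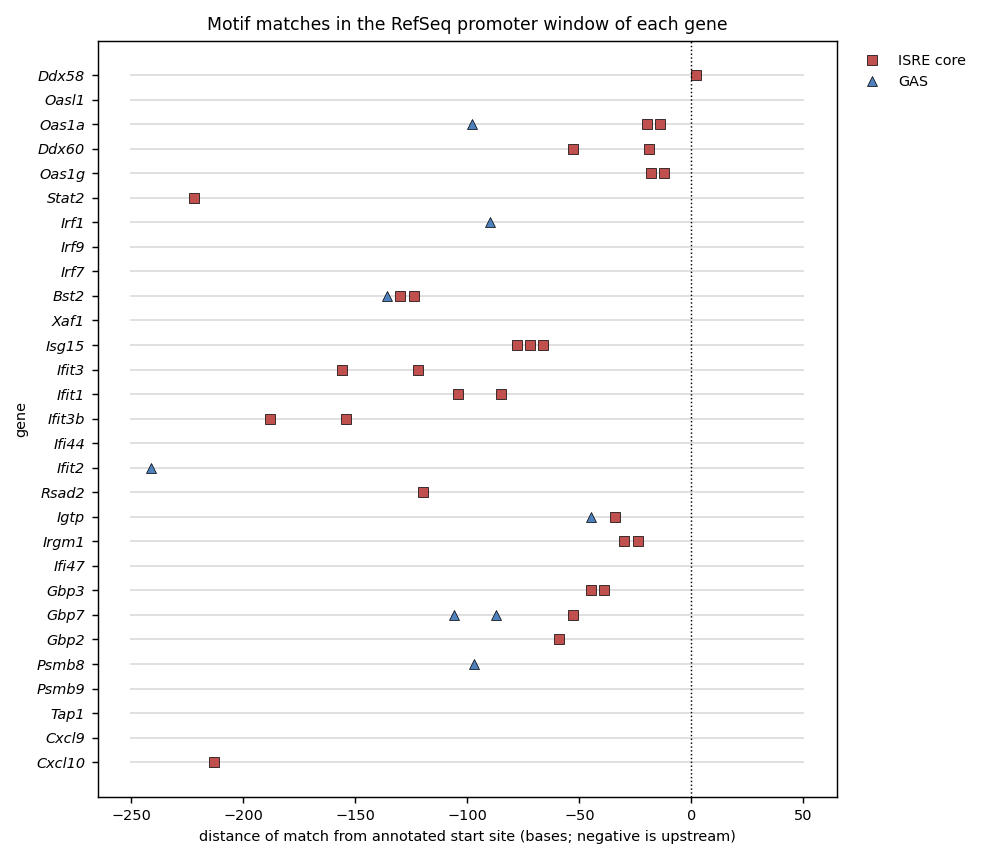
Position of each match to the ISRE core (squares) and to the GAS letters (triangles) in the RefSeq promoter window of the 29 genes that have one, in bases from the annotated start site (dotted line). The 5 GTPase genes with an ISRE core carry it between 59 and 24 bases upstream, and the 3 immunoproteasome genes carry no ISRE core in this window.

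Many of the genes are neighbours in the genome (GENCODE M21, GRCm38). Psmb9, Tap1 and Psmb8 share chr17:34181987-34201454, where Psmb9 and Tap1 overlap on opposite strands. Ifit2, Ifit3, Ifit3b and Ifit1 share chr19:34550694-34650009, and Gbp7, Gbp3 and Gbp2 share chr3:142530342-142638008. Transcripts of Ifit3 and Ifit3b match over 1700 bases at 97.8%, and those of Oas1a and Oas1g over 1861 bases at 97.6%, so the division of reads within each of these pairs is uncertain. Part of Gbp7 is identical to Gm43802 over 637 bases, and Isg15 matches AC151275.1 over 482 bases at 95.2%.

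The 6 hepatocyte markers were all detected, with a summed level of 55320 or more in every library. Esr1 itself was 7.59 to 15.95 in controls and 8.02 to 19.7 in mutants on chow, and 6.14 to 8.09 in controls on HFD. In mutants on HFD it was 6.42 in library 1, within the range of the controls, and 22.9, 21.1 and 20.5 in libraries 2, 3 and 4. The Cre is aimed outside the liver, so these values do not check the genotype. A pair of mutant chow livers, libraries 1 and 2, stood apart in the neutrophil list, of which 6 of 7 markers had a row and which summed to 2801 and 5988 there against 1.92 to 139 elsewhere. The titles of the libraries carry numbers that fall into 4 series of unstated meaning, each within 1 diet. On HFD, the series with the lower numbers holds 3 controls (1, 2 and 3) and 1 mutant (1), and the higher series holds 1 control (4) and 3 mutants. On chow, the lower series holds 2 controls (1 and 2) and 1 mutant (1), and the higher series holds 2 controls and 3 mutants. Diet and series therefore cannot be told apart.

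The response genes were expressed at a low to moderate level in every group. Mean levels over the 16 libraries, which are per length and can be compared between genes, ranged from 1.40 for Rsad2 to 212 for Bst2. The most abundant gene of each role was Bst2 among type I effectors, Iigp1 (135) among interferon-gamma GTPases, Stat2 (64.0) among transcription factors, Psmb8 (59.7) among immunoproteasome genes, Ddx58 (17.4) among sensors and Cxcl9 (5.04) between the chemokines. None of the 11 interferon genes on the list of ligands had a row in the table.

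Livers of 1 group differed from one another more in these genes than in most. The standard deviation within groups on the log2 scale had a median of 0.44 over the 37 genes, against 0.26 over the 12704 genes tested. The values ran from 0.21 for Ifit3 to 0.99 for Ifi27l2a, which lies at percentile 98.5 of all tested genes. Igtp (0.72, percentile 96.2) and Cxcl9 (0.65, percentile 95.1) followed.

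**Figure D2:**
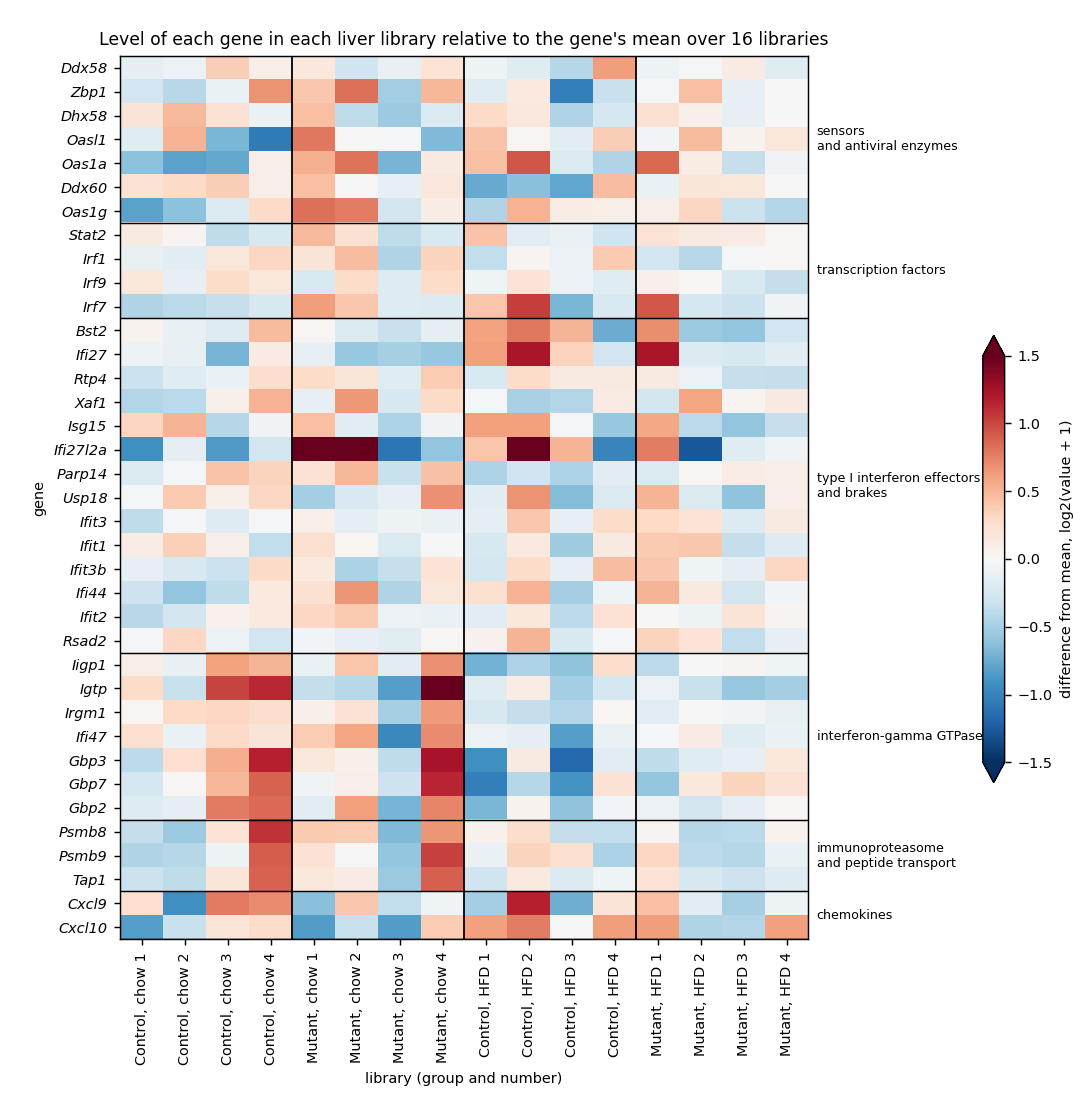
Each cell gives the log2(value + 1) of a gene in a library minus that gene's mean over the 16 libraries, with genes in rows by role and libraries in columns by group. The GTPase and immunoproteasome rows are reddest in control chow 4 and mutant chow 4, whereas Bst2, Ifi27 and Isg15 are reddest in control HFD 1 and 2 and mutant HFD 1.

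Mutant and control livers on chow gave no call in these genes. The 4 genes with the smallest p in this contrast were the antiviral Oas1g and Oas1a, the sensor Dhx58 and the effector Ifi44, with log2 fold changes between -0.37 and 0.72 and none past the threshold. No member of the 37 passed an adjusted p of 0.05 in limma, where 0.0236% of all tested genes did, and 1, Oas1g, passed an unadjusted p of 0.05 (2.70%), against 6.08% of all genes. That count of 1 became 7 without mutant chow 3 (9.78% of all genes), 3 without control chow 4, 2 without mutant chow 4, and 0 without control chow 1 or without mutant chow 2. The counts without a share beside them show only how the count moved. The median log2 fold change was -0.02 over the 37 genes and 0.02 over all genes, and 18 of the 37 lay above 0.

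Oas1g encodes an oligoadenylate synthetase, an enzyme that on sensing double-stranded RNA makes the activator of RNase L. It stood at 0.548, 0.771, 1.35 and 2.29 in controls on chow and at 3.80, 3.62, 1.21 and 1.93 in mutants on chow. In HFD livers the values were 0.979, 2.88, 1.93 and 1.87 in controls and 1.87, 2.39, 1.16 and 0.995 in mutants. Mutant chow 1 and 2 held the highest values and the groups overlapped. The log2 fold change on chow was 0.69 ± 0.30 (SE, limma adjusted p = 0.805), and it was 0.24 with mutant chow 1 and 2 left out.

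Oas1a, its near-identical neighbour, was 1.64, 1.30, 1.36 and 3.33 in controls on chow and 4.84, 6.09, 1.48 and 3.41 in mutants on chow. Oas1a on HFD was 4.52, 6.76, 2.47 and 1.94 in controls and 6.35, 3.36, 2.16 and 2.88 in mutants. The high livers were again mutant chow 1 and 2, joined by control HFD 2 and mutant HFD 1. The fold change on chow was 0.72 ± 0.37 (adjusted p = 0.838 in limma) and was 0.24 without mutant chow 1 and 2. Summed over the pair, which does not depend on how reads were divided, the values averaged 3.15 ± 1.67 in controls and 6.59 ± 3.20 in mutants on chow (SD, n = 4).

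Dhx58 encodes LGP2, a regulator of RNA sensing by RIG-I-like receptors. It was 7.75, 9.77, 7.88 and 6.15 in controls on chow and 9.47, 4.90, 4.27 and 5.59 in mutants on chow. Under HFD the levels were 8.38, 7.53, 4.62 and 5.37 in controls and 7.96, 7.06, 6.04 and 6.67 in mutants. The mutant chow values lay below all 4 controls in 3 of 4 livers, and the fold change on chow was -0.37 ± 0.21 (limma adjusted p = 0.857).

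Ifi44, an interferon-induced gene with antiviral activity, was 1.103, 0.739, 1.006 and 1.903 in controls on chow and 2.07, 3.13, 0.913 and 1.94 in mutants on chow. HFD livers held 2.10, 2.75, 0.832 and 1.51 in controls and 2.71, 1.904, 1.16 and 1.55 in mutants. The groups overlapped on both diets, and the fold change on chow was 0.44 ± 0.26 (adjusted p = 0.872 in limma).

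Irf7 encodes the factor that amplifies type I interferon production, and it is described because it was the 1 gene of the 37 whose groups did not overlap on chow; it was chosen after its values were seen. It was 10.2, 10.6, 11.1 and 12.0 in controls and 22.8, 19.5, 12.4 and 12.3 in mutants on chow, so every mutant lay above every control. No p is given, since this separation chose the gene. Groups that do not overlap were found for 3.05% of all genes in this contrast, against 1 of 37 (2.70%) here. Its log2 difference on chow was 0.52 ± 0.33 (SE). HFD values were 19.5, 30.6, 8.56 and 12.1 in controls and 28.3, 11.8, 11.3 and 13.8 in mutants, with no separation.

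The same livers that were high in Oas1g and Irf7 on chow were the pair that stood apart in neutrophil markers. Ifi27l2a, an interferon-inducible gene named here after its values were seen, was 32.3 and 32.8 in mutant chow 1 and 2 and 4.23 and 6.33 in mutant chow 3 and 4. In controls on chow it ran from 4.84 to 9.01. Its means on chow were 6.785 ± 2.09 in controls and 18.9 ± 15.8 in mutants (SD, n = 4). The Kupffer cell and macrophage markers, 8 of 8 with a row, also summed to 541 and 657 in mutant chow 1 and 2, against 127 to 446 elsewhere. Fewer cells of a type and less RNA per cell cannot be told apart in whole tissue, and the part of these cells in the levels was not tested. Without the pair, 0 genes of the 37 passed the adjusted threshold on chow in limma. Oas1g no longer passed the unadjusted threshold, and Dhx58 (-0.58) did in its place. The mutants left in that fit belong to the higher title series only.

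Genotype on HFD gave no call either. The 4 genes with the smallest p were Ddx60, Parp14 and Gbp7, higher in mutant means, and Bst2, lower in the mutant mean. In limma 0 of the 37 passed the adjusted threshold, against 0.0157% of all genes, and 0 passed unadjusted, against 8.6%. Without control HFD 4 the unadjusted count was 4 (23.9% of all genes), and without mutant HFD 1 it was 3 (20.1%). The median log2 fold change was -0.00 over the 37 genes and 0.02 over all genes. No gene of the 37 separated the genotypes on HFD, where 2.69% of all genes did.

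Ddx60 encodes a helicase that promotes sensing of viral RNA by RIG-I. It was 0.791, 0.955, 0.754 and 3.17 in controls on HFD and 1.82, 2.41, 2.38 and 2.02 in mutants on HFD. On chow it was 2.50, 2.67, 2.89 and 2.23 in controls and 3.13, 2.03, 1.76 and 2.40 in mutants. The 3 controls with low values carry titles of the lower HFD series, and the control with the high value, control HFD 4, carries a title of the higher one. The fold change on HFD was 0.48 ± 0.23 (limma adjusted p = 0.577), and it was 0.13 with the title series as a term.

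Parp14, an ADP-ribosyltransferase of the interferon response, was 5.76, 6.62, 5.79 and 7.39 in controls and 7.02, 8.51, 9.08 and 8.90 in mutants on HFD. On chow it was 7.07, 8.26, 11.6 and 10.8 in controls and 9.86, 12.2, 6.43 and 11.7 in mutants. The HFD groups overlapped only through control HFD 4 and mutant HFD 1, the libraries whose title series is that of the opposite group. The fold change on HFD was 0.34 ± 0.18 (limma adjusted p = 0.588) and 0.21 with the title series as a term.

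Gbp7, a guanylate-binding protein that helps destroy microbes inside cells, was 3.78, 6.18, 4.21 and 10.3 in controls and 5.49, 9.81, 11.2 and 10.3 in mutants on HFD. On chow it was 7.08, 8.79, 12.7 and 16.9 in controls and 8.34, 9.35, 6.83 and 20.3 in mutants. The fold change on HFD was 0.57 ± 0.34 (adjusted p = 0.617 in limma) and 0.11 with the title series as a term.

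Bst2 encodes tetherin, which holds budding viruses at the cell surface. It was 306, 349, 287 and 120 in controls and 325.9, 136, 134 and 165 in mutants on HFD. On chow it was 208, 187, 175 and 280 in controls and 204, 173, 159 and 182 in mutants. The HFD values formed a high set of 4 and a low set of 4 that each held both genotypes and that coincided with the title series. The fold change between genotypes on HFD was -0.47 ± 0.31 (limma adjusted p = 0.637), and it turned to 0.16 with the title series as a term.

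**Figure D3:**
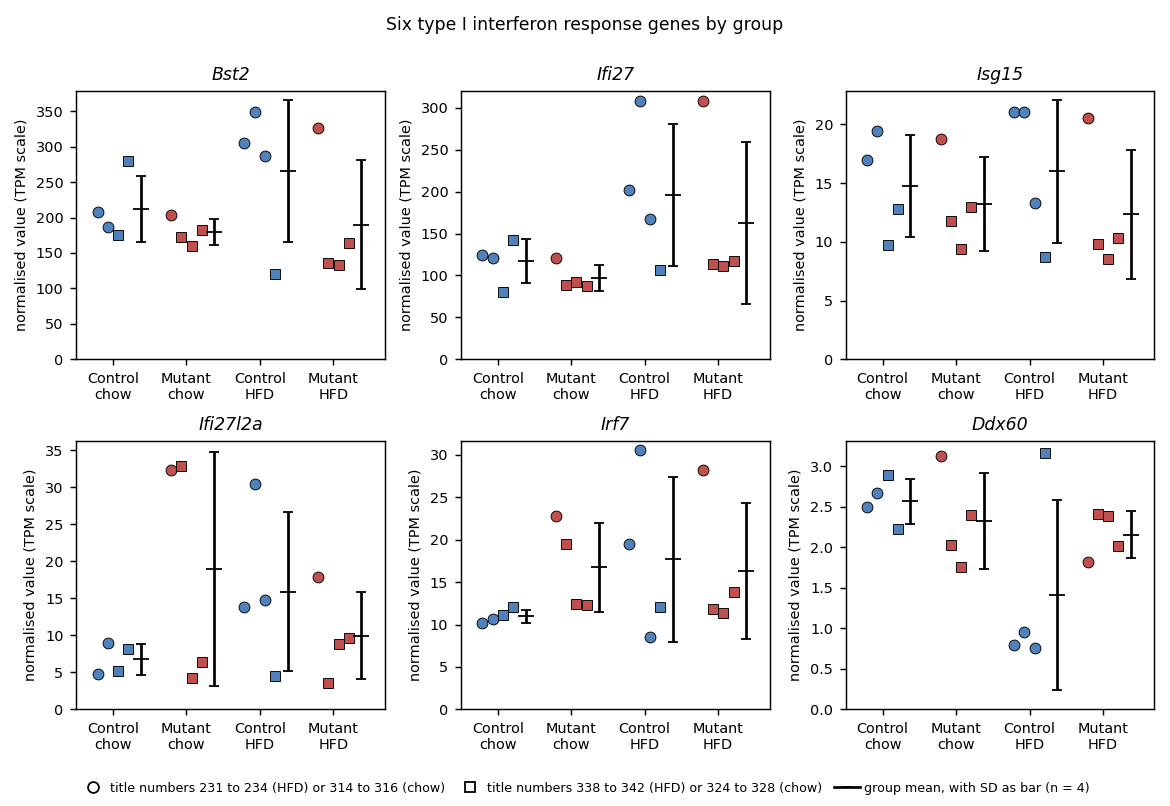
Value of 6 genes in every library by group (blue, control; red, mutant), with the mean and SD of each group of 4 at its right. Circles and squares mark the lower and higher title series within a diet. For Bst2, Ifi27 and Isg15 on HFD every circle lies above every square, whereas for Ddx60 on HFD every circle lies below every square.

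In controls, HFD livers held lower mean levels of the interferon-gamma GTPases. Their 7 genes all had negative log2 fold changes, with a median of -0.65, and all 7 lay below 0 too when columns were rescaled to one total and with median-of-ratios size factors. Relative to each gene's mean over all libraries, the 7 had a median log2 level of 0.03, -0.10, 0.55 and 0.85 in control chow 1 to 4 and of -0.68, -0.13, -0.61 and -0.04 in control HFD 1 to 4. Control chow 3 and 4, both of the higher chow title series, stood above the rest. Control chow 1 and 2, of the lower chow series, lay near control HFD 2 and 4. Control HFD 1, 2 and 3 belong to the lower HFD series and control HFD 4 to the higher, so diet and series cannot be told apart here. Of the 7 genes, 5 had the same 3 highest libraries, so the 7 are not separate observations. The T and NK cell markers summed to 13.7, 7.63, 15.6 and 33.5 in control chow 1 to 4 and to 9.12 to 17.0 in control HFD livers, and their part in these levels was not tested. No gene of the 37 passed the adjusted threshold in limma, where 0% of all genes did. At an unadjusted p of 0.05, 6 of 37 passed (16.2%), against 12.9% of all genes, and all 6 were lower on HFD: Ddx60, Iigp1, Irgm1, Parp14, Gbp3 and Gbp7. The median over the 37 genes was -0.07, against -0.01 over all genes.

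Iigp1, an immunity-related GTPase that attacks the vacuoles of parasites, was 138, 120, 197 and 185 in controls on chow and 78.9, 93.8, 85.0 and 156 in controls on HFD. In mutants it was 121, 173, 116 and 209 on chow and 98.4, 130, 133 and 124 on HFD. Of the control HFD livers only number 4 reached the range of the chow controls. The diet difference in controls was -0.65 ± 0.23 (limma adjusted p = 0.288).

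Irgm1, a regulator of those GTPases and of autophagy, was 34.6, 41.8, 42.1 and 40.6 in controls on chow and 28.5, 26.1, 24.6 and 34.6 in controls on HFD. In mutants it was 35.7, 39.3, 23.6 and 53.3 on chow and 29.9, 33.5, 32.8 and 31.3 on HFD. The diets did not overlap in controls, by a margin of 34.63 against 34.62. It was the 1 gene of the 37 (2.70%) to separate the diets in controls, against 6.36% of all genes. The difference was -0.48 ± 0.18 (limma adjusted p = 0.299).

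The diet differences in controls of the remaining pair named by p were -0.66 ± 0.23 for Ddx60 (limma adjusted p = 0.272) and -0.48 ± 0.18 for Parp14 (adjusted p = 0.299). Without control HFD 4, the 1 control whose title belongs to the higher series, 2 genes of the 37 passed the adjusted threshold, Ddx60 (-0.96, limma adjusted p = 0.0161) and Iigp1 (-0.86, 0.0323), both lower on HFD. That is 2 of 37 in a fit that called 7.28% of all genes, and 11 passed unadjusted, against 26.7%. The 3 HFD controls that then remain belong to a single title series.

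Diet in mutants gave 0 of 37 at either threshold in limma, against 0% adjusted and 6.86% unadjusted over all genes. The median was -0.09 over the 37 genes and -0.01 over all genes, and 0 of the 37 separated the diets, against 3.53% of all genes. Leaving out mutant chow 1 and 2 moved the median to 0.07, with 0 adjusted and 1 unadjusted call. Leaving out mutant chow 3 moved it to -0.27, with 0 adjusted and 7 unadjusted calls (10.3% of all genes), all lower on HFD. The 7 interferon-gamma GTPases all lay below 0 in mutants too, with a median of -0.24. Relative to each gene's mean, their median was -0.05, 0.21, -0.50 and 0.74 in mutant chow 1 to 4. In mutant HFD 1 to 4 it was -0.17, -0.01, -0.13 and -0.06.

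Rtp4, a chaperone of opioid receptors that interferon induces, was 21.0, 19.6, 15.1 and 22.6 in mutants on chow and 18.9, 16.2, 13.3 and 13.2 on HFD. In controls it was 13.5, 15.02, 15.9 and 20.9 on chow and 14.5, 20.9, 19.0 and 19.0 on HFD. The HFD mean was the lower in mutants and the higher in controls, and no difference passed: -0.33 ± 0.16 for diet in mutants (limma adjusted p = 0.747) and -0.49 ± 0.23 for the interaction (adjusted p = 0.895).

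Ifi27, a mitochondrial and nuclear-envelope protein of the interferon response, was 120, 88.4, 92.8 and 87.8 in mutants on chow and 308, 114, 111 and 117 on HFD. In controls it was 124, 121, 80.4 and 143 on chow and 202, 308, 168 and 107 on HFD. A single liver, mutant HFD 1, set the HFD mean in mutants, and the other 3 lay within the range of the chow libraries. The diet difference in mutants was 0.59 ± 0.33 (limma adjusted p = 0.763).

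Irf1 encodes the factor that drives many interferon-gamma targets, including the immunoproteasome. It was 37.03, 44.8, 23.3 and 40.8 in mutants on chow and 26.2, 23.9, 31.8 and 32.7 on HFD. In controls it was 29.8, 28.7, 36.5 and 40.3 on chow and 24.8, 33.4, 30.4 and 42.6 on HFD. The groups overlapped, with a diet difference in mutants of -0.31 ± 0.20 (limma adjusted p = 0.819). For Oas1g the diet difference in mutants was -0.44 ± 0.30 (adjusted p = 0.822 in limma), and it was 0.00 without mutant chow 1 and 2.

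Over both diets, genotype gave 0 of 37 adjusted (0.063% of all genes) and 0 unadjusted (8.98%) in limma. Leaving out 1 library gave 0 to 3 unadjusted, with 3 without mutant chow 3 (11.2% of all genes). The 4 smallest p belonged to Zbp1, a sensor of Z-form nucleic acid that starts necroptosis (0.38 ± 0.21, limma adjusted p = 0.608), Parp14 (0.21 ± 0.13, 0.630), Bst2 (-0.35 ± 0.22, 0.631) and Xaf1, which counters inhibitors of apoptosis (0.27 ± 0.18, 0.643). Bst2 moved to -0.03 and Xaf1 to 0.07 with the title series as a term. The median was 0.03 over the 37 genes and 0.02 over all genes.

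Over both genotypes, diet gave 0 of 37 adjusted (0.134% of all genes) and 7 unadjusted (18.9%, against 14.1% of all genes) in limma. Lower on HFD at the unadjusted threshold were Iigp1, Parp14, Irgm1, Gbp3 and Ddx60, and higher were Ifi27 and Cxcl10. Without mutant chow 3 the count was 12 (15.2% of all genes). Iigp1 differed by -0.48 ± 0.17 (limma adjusted p = 0.226), Ifi27 by 0.63 ± 0.23 (0.247), Parp14 by -0.34 ± 0.13 (0.251) and Irgm1 by -0.33 ± 0.13 (0.264). The median was -0.06 over the 37 genes and -0.01 over all genes.

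The genotype by diet interaction gave 0 of 37 adjusted (0% of all genes) and 0 unadjusted (4.21%) in limma. Without mutant chow 3 the unadjusted count was 4 (6.44% of all genes), and it was 0 to 2 without any other library. The smaller p after Rtp4 belonged to Oas1g, whose difference of differences was -0.85 ± 0.42 (limma adjusted p = 0.895). The median was 0.00 over the 37 genes and -0.01 over all genes.

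**Figure D4:**
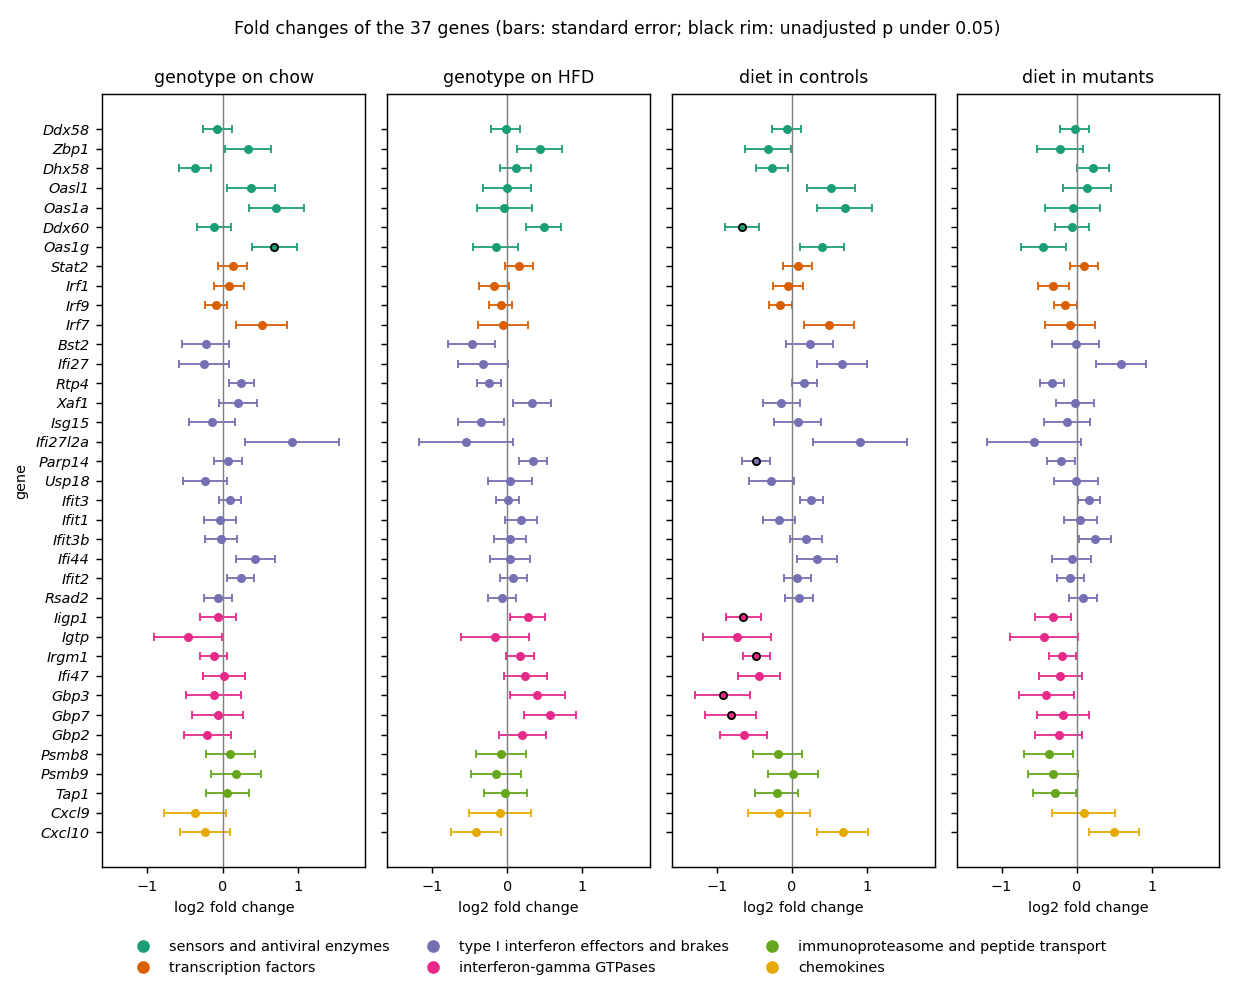
Log2 fold change (log2(value + 1) scale) of the 37 genes in the 4 contrasts of 2 groups, with the standard error as a bar, colour by role, and a black rim where the unadjusted limma p is under 0.05. The 7 GTPases lie left of 0 in the diet contrast in controls and also in that in mutants. In the diet contrast in controls 6 of 37 points carry a rim, against 1, 0 and 0 in the other contrasts.

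The 3 immunoproteasome genes did not separate any pair of groups, where 2.69% to 6.36% of all genes separated the 4 pairs compared. Psmb8, a catalytic subunit, was 43.7, 37.9, 65.0 and 120 in controls and 74.4, 73.96, 35.2 and 89.6 in mutants on chow. Psmb8 on HFD was 59.1, 67.9, 43.9 and 43.4 in controls and 58.3, 41.8, 42.4 and 58.4 in mutants. Control chow 4 was far above the rest of its group. None of Psmb8, Psmb9 and the peptide transporter Tap1 passed the unadjusted threshold in the 7 contrasts in limma, where 4.21% to 14.1% of all genes did. A count of 0 among 3 genes does not set them apart from all genes. Their medians ran from -0.31 for diet in mutants to 0.10 for genotype on chow.

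Set against its constitutive counterpart, Psmb8 divided by Psmb5 was 1.87 ± 0.95 in controls and 1.99 ± 0.67 in mutants on chow (SD, n = 4). On HFD the ratio was 1.22 ± 0.27 in controls and 1.44 ± 0.39 in mutants. Psmb9 divided by Psmb6 was 0.222 ± 0.136 and 0.236 ± 0.116 on chow and 0.159 ± 0.0249 and 0.179 ± 0.0207 on HFD. The HFD means were lower for both ratios, and the spread on chow was wide: Psmb8 over Psmb5 ran from 1.14 to 3.20 in chow controls and from 0.864 to 1.49 in HFD controls. Psmb5 itself was 29.1 in control HFD 4 and 50.2 to 50.8 in the other HFD controls.

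Ddx58 encodes RIG-I, the receptor for uncapped viral RNA, and was 15.6, 16.03, 22.4 and 18.3 in controls and 19.2, 13.8, 15.8 and 19.9 in mutants on chow. The HFD values were 16.3, 15.03, 12.5 and 27.0 in controls and 16.3, 17.0, 18.8 and 14.98 in mutants. Apart from control HFD 4, every value lay between 12.5 and 22.4.

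Stat2, a part of the type I complex, was 69.1, 65.0, 48.2 and 53.2 in controls and 88.7, 73.7, 48.0 and 53.6 in mutants on chow. Stat2 on HFD was 84.9, 56.1, 58.5 and 51.0 in controls and 72.6, 69.1, 68.9 and 63.8 in mutants. All 4 groups overlapped.

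Cxcl9, a chemokine for T cells that interferon gamma induces, was 5.63, 1.94, 8.51 and 8.09 in controls and 2.60, 6.38, 3.32 and 4.32 in mutants on chow. Cxcl9 on HFD was 2.90, 11.49, 2.36 and 5.34 in controls and 6.62, 3.97, 2.92 and 4.29 in mutants. All 4 groups overlapped. Cxcl10, its close relative, had the higher HFD mean in both genotypes. Its means were 3.59 ± 1.496 on chow and 6.15 ± 1.53 on HFD in controls (SD, n = 4). In mutants they were 2.98 ± 1.73 and 4.62 ± 2.29. The difference over both genotypes was 0.58 ± 0.24 (SE) and did not pass the adjusted threshold in limma. Cxcl10 was chosen after its values were seen, so no p is given.

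The 3 livers of highest level were shared by 5 of the 7 interferon-gamma GTPases, and these libraries were noticed after their values were seen. Gbp2, Gbp3, Gbp7, Igtp and Iigp1 had the same 3 highest libraries, control chow 3 and 4 and mutant chow 4. Igtp, an immunity-related GTPase, was 38.2, 24.7, 64.1 and 69.9 in controls and 24.3, 23.1, 17.2 and 116 in mutants on chow. Igtp on HFD was 27.4, 33.8, 21.6 and 25.9 in controls and 29.3, 24.6, 20.8 and 21.7 in mutants. Mutant chow 4 held the highest and mutant chow 3 the lowest value of all 16 libraries, within 1 group. Among the other interferon-gamma GTPases, genes not counted in the 37, 7 of 11 tested genes had the same 3 highest libraries. The summed T and NK cell markers, 12 of 12 with a row and 6 tested, were highest in control chow 4 (33.5). Ccl5 was the largest single marker there. The sums ranged from 6.43 to 26.2 elsewhere, with 1 or 2 markers at 0 in some libraries. They were 15.6 in control chow 3 and 21.75 in mutant chow 4, below the 24.6 and 26.2 of mutant chow 1 and 2. Of the 6 tested markers, 0 had the 3 highest libraries shared by the 5 GTPases. Control chow 4 was among the 3 highest for 5 markers, mutant chow 4 for 1 and control chow 3 for 0. The part of T and NK cells in the GTPase levels was not tested.

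**Figure D5:**
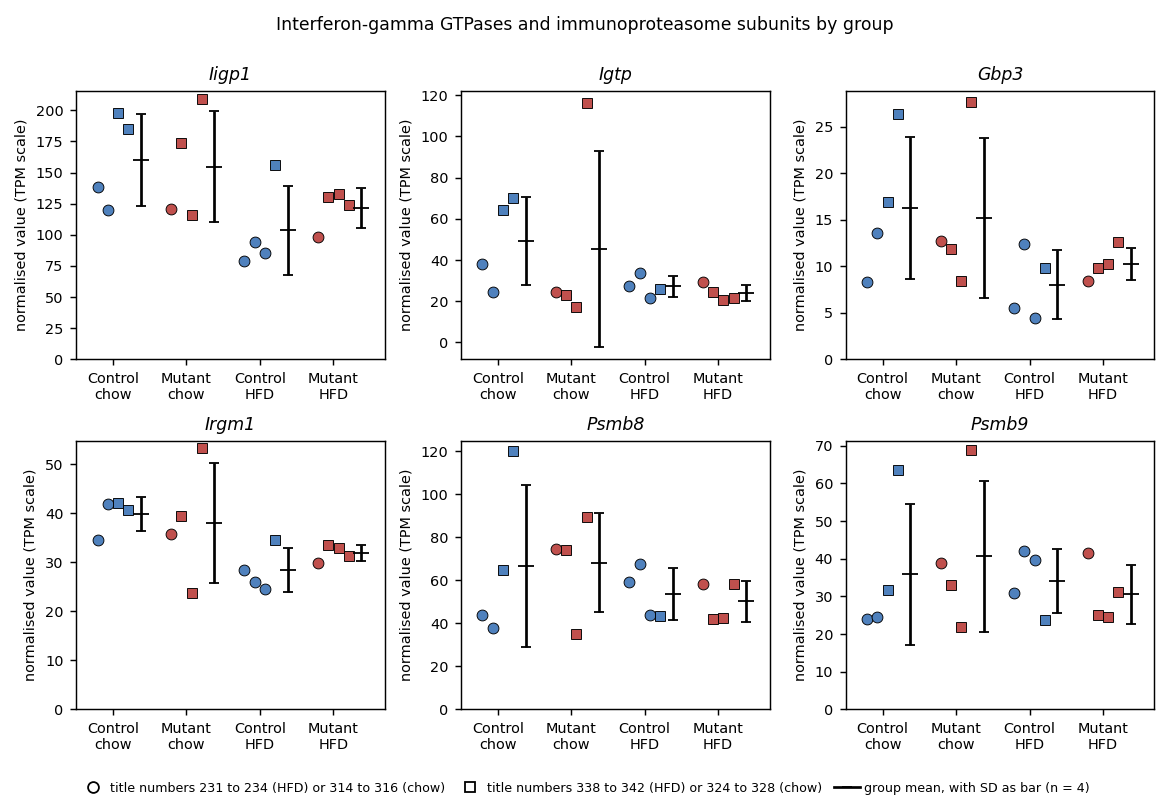
Value of 4 interferon-gamma GTPases and 2 immunoproteasome subunits in every library by group (blue, control; red, mutant), with the mean and SD of each group of 4 at its right and the title series as circle or square. Igtp is spread most widely among mutants on chow, where its SD bar reaches below 0: it runs from 17.2 to 116 in mutants on chow and from 20.8 to 29.3 in mutants on HFD.

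Mutant chow 4 held the highest value of the 16 libraries for 11 of the 37 genes, and control HFD 2 and mutant chow 2 for 7 each. Mutant chow 3 held the lowest value for 11 genes and control HFD 3 for 7. Mutant chow 3 and 4 belong to 1 group and 1 title series.

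A different set of livers was high in 3 of the 14 type I effectors. Bst2, Ifi27 and Isg15 had control HFD 1 and 2 and mutant HFD 1 as their 3 highest libraries. Over all 14, control HFD 2 lay above the gene's mean for 12 genes and mutant HFD 1 for 11. Mutant chow 1 did so for 10 and control HFD 1 for only 6. Isg15, the ubiquitin-like modifier that interferon induces, was 17.0, 19.5, 9.70 and 12.8 in controls and 18.8, 11.8, 9.41 and 12.9 in mutants on chow. HFD livers held 21.1, 21.0, 13.3 and 8.69 in controls and 20.5, 9.85, 8.58 and 10.4 in mutants. Isg15 was chosen after its values were seen.

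Title series on HFD was the 1 contrast with calls among the 37 genes. With genotype in the fit, 6 of 37 (16.2%) passed the adjusted threshold in limma, against 25.2% of all genes, and 11 (29.7%) passed unadjusted, against 37.8%. The higher series held less Bst2 (-1.27 ± 0.16, limma adjusted p = 0.000333), Isg15 (-1.001 ± 0.17, 0.00145) and Ifi27 (-1.23 ± 0.22, 0.0017) and more Ddx60 (0.70 ± 0.19, 0.0196), Iigp1 (0.62 ± 0.18, 0.0209) and Gbp7 (0.91 ± 0.29, 0.0361). Bst2, Isg15 and Ifi27 passed in each of the 8 fits that left out 1 HFD library. Ddx60 and Iigp1 passed in 7 of these fits and lost the call without control HFD 4 (adjusted p = 0.583 and 0.362 in limma), where 3 of the 37 passed, against 5.61% of all genes. Gbp7 passed in 1 of the 8 fits, that without control HFD 2, and did not pass with library weights (limma adjusted p = 0.0826). The series did not overlap for 10 of the 37 genes (27.0%), against 35.6% of all genes: Parp14, Ddx60, Gbp7, Xaf1, Irgm1 and Iigp1 were higher and Isg15, Bst2, Ifi27 and Ifi27l2a lower in the higher series. The shares among the 37 genes were thus no larger than those over all genes. The constitutive proteasome subunits were called as well, all 3 of their list lower in the higher series, with Psmb6 at -0.63 ± 0.11 (limma adjusted p = 0.00143).

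On chow the title series gave 0 of 37 adjusted (0% of all genes) and 9 unadjusted (24.3%, against 11.6% of all genes) in limma. Without mutant chow 3 the unadjusted count was 18 (12.2% of all genes). The higher series held less Oasl1 (-1.04 ± 0.21, limma adjusted p = 0.163), Isg15 (-0.67 ± 0.16, 0.181) and Stat2 (-0.49 ± 0.16, 0.267) and more Iigp1 (0.50 ± 0.16, 0.274). Ifit1 and Isg15, 2 of 37 (5.41%), did not overlap between the series, against 6.76% of all genes. The mean of Isg15 was lower and that of Iigp1 higher in the higher-numbered series on either diet, though Iigp1 overlapped between the chow series. Of the other genes called on HFD, Ifi27 and Gbp7 also kept the direction of their means. Ddx60 did not: it averaged 2.76 in the lower and 2.26 in the higher series on chow, against 1.08 and 2.50 on HFD. Bst2 averaged 199 and 194 on chow. The series are different libraries on each diet.

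The other genes of the pathway, from lists that leave out the 37, held no adjusted call in the 7 contrasts of genotype and diet in limma either. Among 11 other interferon-gamma GTPases, 0 passed the adjusted and 4 the unadjusted threshold for diet in controls (12.9% of all genes), all lower on HFD, led by Gbp6 (-0.87 ± 0.26, limma adjusted p = 0.224) and Tgtp2 (-1.27 ± 0.52, 0.324). For diet over both genotypes 7 of the 11 passed unadjusted (14.1% of all genes), all lower, with a median of -0.64. For genotype on HFD 1 passed unadjusted, Gbp5 (1.27 ± 0.39, limma adjusted p = 0.527), higher in mutants. Among 33 other interferon-stimulated genes, 3 passed unadjusted for diet in controls (12.9% of all genes), all lower, and 2 for genotype on chow (6.08%), both higher in mutants: Trim30a (0.79 ± 0.26, limma adjusted p = 0.729) and Oas2 (0.71 ± 0.28, 0.805).

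Among 11 other STAT and IRF factors and their brakes, Irf5 had the smallest p for diet in controls and was lower on HFD (-0.86 ± 0.23, limma adjusted p = 0.199). Irf5, a factor of macrophage activation, was lower on HFD in mutants as well (-0.78 ± 0.23, limma adjusted p = 0.592), where 5 of the 11 passed unadjusted (6.86% of all genes), all lower, and over both genotypes its difference was -0.82 ± 0.16 (adjusted p = 0.0555 in limma), which missed the threshold. For the remaining lists each count is 1 gene, to be read against 6.08% and 8.6% of all genes for genotype on either diet (chow first) and 12.9% and 6.86% for diet in either genotype (controls first). Of 8 interferon receptors and kinases, 1 passed unadjusted in each of the 4 contrasts of 2 groups, among them Ifngr1, a chain of the interferon-gamma receptor, on chow (0.50 ± 0.21, limma adjusted p = 0.805). Of 13 other immunoproteasome and class I genes, 1 passed unadjusted for genotype on chow (Tapbpl, 0.34 ± 0.13, adjusted p = 0.805 in limma) and 1 for genotype on HFD (H2-K1, -0.56 ± 0.25, 0.573). Of 9 upstream sensing genes, 1 passed unadjusted for genotype on HFD, Trim25 (0.42 ± 0.19, limma adjusted p = 0.577), and 1 for diet in mutants, Ikbke (-0.45 ± 0.21, adjusted p = 0.723 in limma). On HFD, Trim25 was 19.9 to 21.2 in the lower title series and 32.8 to 35.7 in the higher. H2-K1 was 361 to 416 in the lower series and 205 to 303 in the higher. The series did not overlap for 35.6% of all genes.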

How the data were processed

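Total RNA from liver was sequenced from libraries made with a NEBNext Ultra II kit. Per the labels and the study's methods, the authors quantified transcripts of the mm10 mouse build with kallisto and sleuth. Versions and the annotation release are not given in the sources used here. The deposited table holds, for each gene, a TPM-like signal after size-factor adjustment, inferred from fractional values and column totals of 905897 to 1119703. This scale keeps no depth, so depth is unknown and no counting interval was computed. Precision rests on 4 libraries per group. Nothing in the labels ties a library to an animal, so p-values measure the spread between these libraries. A count model had been foreseen had the values been counts.

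Values were moved to log2(value + 1) and contrasts tested in limma 3.58.1 in R 4.3.3, with a variance trend, 4 group means in 1 fit, and Benjamini-Hochberg adjustment over 12704 genes at 0.05. Fold changes on this scale understate changes of low genes. The contrast of title series used a fit with group and series terms. The fit was also run on simulated data with independent noise for each gene and no effect of title series. That simulation could not test contrasts in which title series is partly aligned with genotype.

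The 37 genes and the other lists were chosen with earlier results of these data known. Genes were named by rule: the 4 smallest p in each contrast (2 in the interaction), the most abundant gene of each role, and at most 2 genes by p per list. The result of 1 listed gene is not reported here. Other choices, made with the values in view, are marked in the text, and title-series genes were listed by their calls. Motifs were searched in RefSeq promoter windows, and positions came from GENCODE M21. The alternatives were 2 rescalings, 2 filters, pseudocounts of 0.1 and 0.5, no trend, a robust prior, library weights, the title series as a term, the compared groups alone, each library left out, and, added after seeing the data, mutant chow 1 and 2 left out together. Figures used Python 3.11.15.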

Additional observations from a re-analysis of the deposited data

Results flagged for a closer look

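In groups of 4 libraries, 9 of 148 combinations of gene and group held a library whose gap to the nearest of the others exceeded Dixon's 95% critical value when divided by the group's range; chance gives about 1 in 20. Of these 9, 4 were in mutant HFD 1, the mutant whose title number belongs with 3 controls: Irf7 at 28.28 (others 11.3 to 13.8), Isg15 at 20.53 (others 8.58 to 10.4), Ifi27 at 308.3 (others 111 to 117) and Bst2 at 325.9 (others 134 to 165). Ddx60 was 3.171 in control HFD 4, the control whose title number belongs with 3 mutants, against 0.754 to 0.955 in the others. In control chow 4, Oas1a was 3.331, against 1.30 to 1.64. In mutant chow 1, Ifi27 was 120.4, against 87.8 to 92.8. In mutant chow 4, Igtp was 116.3, against 17.2 to 24.3. In control HFD 3, Ifi47 was 9.187, against 15.49 to 16.03, the 1 low value among the 9.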

How the results depend on the processing

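The median fold change of the 37 genes moved by less than the spread between libraries (SD 0.24) in all 190 repeats over the 7 contrasts and the alternatives. That limit is wider than the size of any of the 7 medians, so a change of sign could count as no move. This happened for diet in mutants without mutant chow 1 and 2. The count of adjusted calls stayed within 1.5 times its value in 219 repeats and moved further in 7, and the count at an unadjusted p of 0.05 did so in 172 and 54. With library weights the adjusted calls numbered 7 (genotype on HFD), 6 (diet in controls), 1 (genotype over both diets) and 3 (diet over both genotypes), where 30.9%, 17.8%, 8.03% and 5.35% of all genes were called. The lowest weights on HFD fell on control HFD 4 (0.228) and mutant HFD 1 (0.329), the libraries whose title series is that of the opposite genotype. Leaving out 1 library gave 0 to 2 calls for diet in controls and 0 to 2 for diet over both genotypes, with 2 in each case without control HFD 4, and 3 to 7 for title series on HFD, with 3 without control HFD 4. The cause was not tested. A count given here or above without its share over all genes shows only how that count moved. It is not a result about the 37 genes. Of the named genes, 907 values kept direction and side of the threshold, 14 came to pass it and 10 no longer did (Gbp7 8 times, Ddx60 and Iigp1 once each, all for title series on HFD), and these turned direction: Bst2 for genotype on HFD (0.1626 with the title series as a term) and Oas1g for diet in mutants (0.0006205 without mutant chow 1 and 2). Rescaling columns to one total moved the median of all genes for diet in controls from -0.01 to -0.16 and for the interaction from -0.01 to 0.13, and the number of type I effectors above 0 for diet in controls from 10 to 6 of 14. No paired analysis was possible because the labels give no replicate numbers. Depth is unknown, and 4 libraries a group limit what could be called.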
